A study of Rattus norvegicus with 16 samples.

Results

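The genes described here code for the nuclear-encoded subunits of oxidative phosphorylation. They were measured in 2 brain regions, hippocampus and hypothalamus, from male rats of the Sprague Dawley strain, either untreated or given fructose for 6 weeks. Members were all symbols that begin with Nduf, Uqcr, Cox4 to Cox8 or Atp5, together with Sdha, Sdhb, Sdhc, Sdhd and Cyc1, whose mean over all libraries of a region was at least 1 FPKM (fragments counted per unit of transcript length and of sequenced library), at the locus with the highest mean. Across both regions 82 genes met this rule, of 16514 symbols in all. They were 78 of 81 matching symbols in the hippocampus and 81 of 85 in the hypothalamus, and 77 were shared. Poly-A RNA had been sequenced from 4 untreated and 4 fructose samples of hippocampus, and from 4 untreated and 3 fructose samples of hypothalamus. The labels also list fructose replicate 4 of the hypothalamus, which was not analysed here. The labels do not say whether samples were single or pooled animals, so the p-values measure the spread between these samples only.

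Oxidative phosphorylation is carried out in the inner mitochondrial membrane. Complex I takes electrons from NADH and complex II from succinate, complex III passes them to cytochrome c, complex IV passes them to oxygen, and complex V uses the proton gradient made by complexes I, III and IV to make ATP. Neurons draw most of their ATP from this pathway, and several subunits exist as isoforms from separate genes that differ between tissues.

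In the hippocampus the members were 32 complex I genes, 6 complex I assembly factors (the Ndufaf genes, which build the complex but are not part of it), 4 genes of complex II, 8 of complex III, 14 of complex IV and 14 of complex V. In the hypothalamus the counts were 34, 6, 4, 8, 14 and 15. The rule also takes in Cox4nb, Cox7a2l, Atp5s and Atp5sl, which share a name with subunits without being core subunits, and Ndufa4 and its paralog Ndufa4l2, which carry a complex I name although Ndufa4 is now placed in complex IV. Atp5f1 was a member in the hippocampus alone, and Ndufa7, Ndufs3, Atp5d and Atp5s in the hypothalamus alone. The hippocampal data hold no entry under the symbols Ndufa7, Ndufs3, Atp5d and Atp5s, so their level there is unknown and not shown to be low. Cox6a2 lay just inside the threshold in the hippocampus at a mean of 1.04 FPKM, and Cox8b lay just outside it in both regions, at 0.719 and 0.946 FPKM. Atp5f1 averaged 0.756 FPKM in the hypothalamus, and Cox8c and the pseudogene Cox6c-ps1 were listed at 0 in both regions. In the hippocampus 7 members, and in the hypothalamus 2, were split over more than 1 locus. Values of genes with near-identical copies elsewhere in the genome are uncertain, because the handling of reads with several matches is not given in the sources used here.

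The region labels matched the region markers. The hippocampal list summed to 272 to 462 FPKM in the hippocampal libraries and to 91.7 to 136 FPKM in the hypothalamic ones. The hypothalamic list summed to 6.93 to 26.3 FPKM in the hippocampus and to 3922 to 9658 FPKM in the hypothalamus. Each sum took the listed genes with a mean of at least 1 FPKM in that region, so the genes summed were not the same. For the hippocampal list these were 8 of 10 in each region, and for the hypothalamic list 5 and 13 of 14. The libraries numbered replicate 1 stood apart from the rest in each region. In the hippocampus their log2 values over all loci correlated at 0.985 with each other and at 0.84 to 0.896 with the other libraries, and in the hypothalamus at 0.98 against 0.88 to 0.909. Each region has replicate 1 libraries in both groups. The members made up 2.47% to 3.6% of all summed FPKM in the hippocampal libraries and 3.74% to 4.71% in the hypothalamic ones.

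Control levels varied widely among the members of most complexes. In the hippocampus the highest member was Cox4i1, the common isoform of subunit 4 of complex IV, at 909.6 ± 161 FPKM (SD, n = 4). The highest of the other complexes were Atp5l (585 ± 215), a small membrane subunit of complex V, Uqcrh (377 ± 51.9), the hinge protein of complex III, Ndufb8 (374 ± 37.9) of complex I, Sdha (171 ± 14.0), the flavoprotein of complex II, and the assembly factor Ndufaf5 (28.3 ± 4.56), all in FPKM. The lowest were Cox6a2 (0.862 ± 0.701), Atp5f1 (1.55 ± 0.546), Ndufa12 (2.10 ± 1.00), Ndufaf4 (6.37 ± 1.51), Uqcrb (19.3 ± 2.60) and Sdhd (106 ± 17.2 FPKM). The 4 genes of complex II therefore lay within a narrow band, from Sdhd to Sdha, whereas those of complexes I, IV and V ranged from about the threshold to far higher levels. In the hypothalamus the highest controls were Atp5e (1323 ± 253), the epsilon subunit of complex V, Cox6a1 (1290 ± 265), Uqcr11 (678 ± 185), Ndufb10 (459 ± 61.6), Sdhb (211 ± 27.1) and Ndufaf3 (34.6 ± 6.32 FPKM). The lowest there were Cox7a2 (2.52 ± 0.886), Atp5s (3.8 ± 1.9), Ndufaf4 (4.65 ± 0.430), Ndufa4l2 (7.63 ± 2.79), Uqcrb (13.0 ± 1.94) and Sdhd (79.5 ± 9.98 FPKM). Uqcrb, Sdhd and Ndufaf4 were thus the lowest of their groups in both regions, while the highest member differed between the regions in every group.

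**Figure D1:**
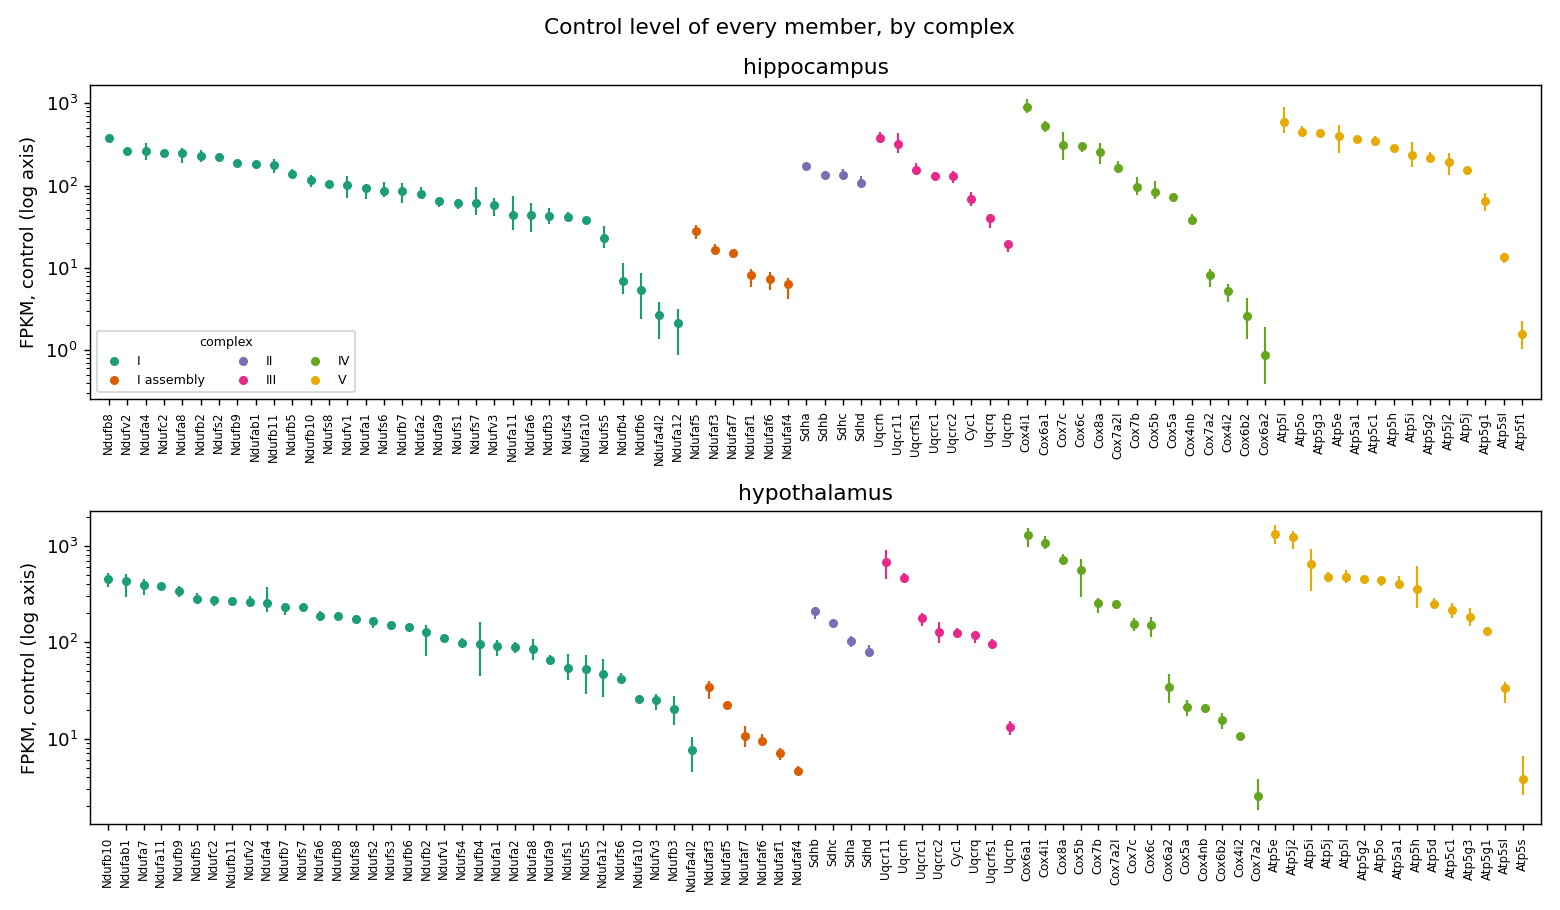
FPKM on a log axis of every member in the control libraries of the hippocampus (top) and hypothalamus (bottom), sorted within each complex; points are means of 4 libraries and bars run from the lowest to the highest library. Complex II genes lie close together, while complexes I, IV and V each span a far wider range.

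Isoform use was read as a ratio of FPKM between paralogs within a library, which does not depend on the scaling of that library. It still depends on how reads were assigned to the locus of each gene. Atp5g1, Atp5g2 and Atp5g3 code for the same mature protein, the c subunit whose ring turns in complex V, with different import sequences. In the hippocampus Atp5g3 was the most abundant of them, and the ratio of Atp5g3 to Atp5g2 was 1.68, 2.26, 2.26 and 1.88 in the controls and 1.92, 2.17, 1.87 and 1.73 after fructose. In the hypothalamus the order was turned round, with ratios of 0.385, 0.316, 0.435 and 0.503 in the controls and 0.453, 0.341 and 0.283 after fructose. Every one of the 8 hippocampal libraries therefore lay above 1 and every one of the 7 hypothalamic libraries below it. The tables of the regions were made separately, and this difference is given as a description with no test. Across these tables the control means of the shared members also differed widely. Their ratios of hypothalamus to hippocampus ran from 0.298 to 39.7. Whether read assignment to loci bears on the regional difference in isoform ratios was not tested. The ratio of Atp5g1 to Atp5g2 stayed near 0.3 throughout, at 0.301 ± 0.0615 and 0.310 ± 0.0404 in control and fructose hippocampus (SD, n = 4 each) and 0.290 ± 0.0361 (n = 4) and 0.315 ± 0.0206 (n = 3) in the hypothalamus.

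Cox6a1 is the isoform of subunit 6a found in most tissues, and Cox6a2 is the isoform of heart and skeletal muscle. Cox6a2 stood at 0.122%, 0.0967%, 0.0622% and 0.427% of Cox6a1 in the hippocampal controls and at 0.142%, 0.181%, 0.181% and 0.626% after fructose. In the hypothalamus it stood at 2.37%, 2.60%, 2.33% and 3.16% in the controls and at 1.28%, 1.40% and 2.07% after fructose. The hypothalamic fructose libraries thus all lay below the controls in this ratio, with a difference in means of -1.03 percentage points (two-sided exact permutation test, p = 0.0571, the smallest that 4 against 3 samples allow). Over the 12 isoform ratios compared, 6 in each region, the Benjamini-Hochberg adjusted value was 0.685. This was the sole ratio of the 12 whose groups did not overlap. The other pairs were unequal in both regions. Cox4i2, the isoform of subunit 4 known from lung and induced by low oxygen, was 0.581% ± 0.165 of Cox4i1 in hippocampal controls and 0.986% ± 0.133 in hypothalamic controls (SD, n = 4 each). Ndufa4l2, also known as a gene induced by low oxygen, was 1.02% ± 0.510 and 3.31% ± 1.68 of Ndufa4.

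**Figure D2:**
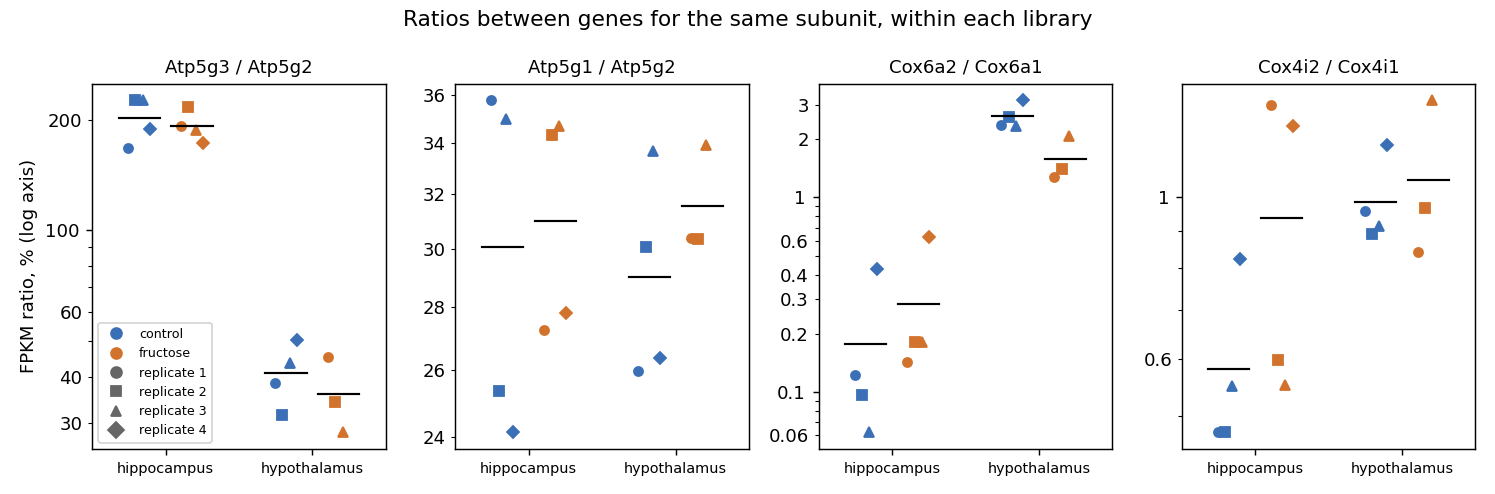
Ratio of FPKM between paralogs in each library, in percent on a log axis, for both regions; colours give the treatment, symbols the replicate number and black lines the group means. Atp5g3 exceeds Atp5g2 in all 8 hippocampal libraries and lies below it in all 7 hypothalamic ones, and Cox6a2 relative to Cox6a1 is lower in the 3 fructose hypothalami than in the 4 controls.

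Promoter sequence is shown for Atp5g2 and Atp5g3, whose order turned round between the regions, for Cox6a2, whose ratio was apart between the treatments, and for Ndufa10, whose hippocampal groups did not overlap. The sequences are printed 5′ to 3′ on the strand of the gene as the 150 bases before the start (RefSeq, build GRCr8), with capitals for the motifs searched: the NRF1 core GCATGCGC, the shorter NRF1 element TGCGCA, the ETS motif CCGGAAG bound by GABP, the YY1 motif AAGATGGCG, the Sp1 box GGGCGG and the CCAAT box, each on either strand. NRF1, GABP and YY1 are factors known for binding at genes of the respiratory chain.
Atp5g2, chr7:135678219-135678368, minus strand: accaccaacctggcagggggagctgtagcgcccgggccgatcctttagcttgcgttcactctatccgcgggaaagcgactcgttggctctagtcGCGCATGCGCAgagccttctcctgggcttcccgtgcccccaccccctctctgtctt
Atp5g3, chr3:79220665-79220814, minus strand: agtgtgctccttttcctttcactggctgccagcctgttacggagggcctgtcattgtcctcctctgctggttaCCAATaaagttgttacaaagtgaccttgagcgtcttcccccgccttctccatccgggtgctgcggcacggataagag
Cox6a2, chr1:192219717-192219866, minus strand: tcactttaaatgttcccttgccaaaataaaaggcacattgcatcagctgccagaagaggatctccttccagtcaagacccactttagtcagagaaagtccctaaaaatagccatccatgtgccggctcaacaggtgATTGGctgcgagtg
Ndufa10, chr9:100489265-100489414, minus strand: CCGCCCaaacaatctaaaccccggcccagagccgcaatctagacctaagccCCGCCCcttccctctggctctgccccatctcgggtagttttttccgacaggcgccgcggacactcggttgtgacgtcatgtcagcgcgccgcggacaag
Atp5g2 has a run in which the NRF1 core is read on both strands and overlaps the shorter element, and Atp5g3 has a CCAAT box in this stretch and the shorter NRF1 element elsewhere in the longer window described next. Cox6a2 has a CCAAT box and Ndufa10 has 2 Sp1 boxes. In that window, from 250 bases before to 50 after the start, 70 of the 82 members could be matched to RefSeq by symbol or synonym. There 14.3% of the members held the NRF1 core, compared with 3.23% of 19005 promoters of protein-coding genes. The shorter NRF1 element was in 28.6% against 9.18%, the ETS motif in 30.0% against 11.2% and the YY1 motif in 14.3% against 2.29%. The Sp1 box was in 41.4% against 43.1%, and the CCAAT box in 30.0% against 38.4%. The median ratio of observed to expected CpG was 0.863 in the members and 0.549 in all promoters, and Cox6a2 had the lowest of the members, 0.26. A match of letters is a description and does not show that a factor binds there. The 10 members with the NRF1 core had a median log2 fold change of -0.05 in the hippocampus and -0.09 in the hypothalamus, and those without it -0.08 and -0.03.

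In the hippocampus the estimated fold changes of most members were small, and no member passed the test. Fold changes are given on the scale of log2(FPKM + 1), fructose minus control, tested with limma over 11385 loci with Benjamini-Hochberg adjustment. Of 78 members 0 had an adjusted p below 0.05, as did 0% of all loci. The unadjusted p was below 0.05 for 1 member, Ndufa10, against 0.808% of all loci. With the replicate number as a block it was below 0.05 for 2 members, against 1.78% of all loci. All fructose libraries lay below all controls for 1 member, again Ndufa10, against 0.413% of all loci, and all lay above for 0 members against 0.255%. In the hippocampus 76 of the 78 members (97.4%) had a 95% interval that lay within 1 unit of 0 on the log2(FPKM + 1) scale, against 89% of all loci. Within 0.5 units of 0 it lay for 29 of the 78 members, a smaller share than the 6232 of 11385 loci. Changes of most members were therefore not bounded to 0.5 units. The scale also understates changes of genes near 1 FPKM. The precision is limited by 4 libraries a group, and the read depth is unknown since the tables hold no counts.

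Ndufa10, an accessory subunit of complex I, was at 35.8, 36.3, 40.6 and 37.8 FPKM in the controls and at 28.0, 33.4, 34.5 and 26.9 FPKM after fructose. The highest fructose library lay just below the lowest control. The log2 fold change was -0.29 ± 0.11 (SE), with an unadjusted p of 0.0317 and a limma adjusted p of 1.00. Cox7b, a small nuclear-encoded subunit of complex IV, was at 83.8, 76.0, 97.6 and 127 FPKM in the controls and 59.5, 87.8, 76.4 and 61.9 FPKM after fructose, so the groups overlapped (log2 fold change -0.42 ± 0.19, limma adjusted p = 1.00). Cox6c, another small subunit of complex IV, was at 315, 258, 285 and 341 FPKM against 254, 239.5, 294 and 208 FPKM (-0.27 ± 0.14, adjusted p = 1.00). Here too the groups overlapped, by 1 fructose library. Cox4i2 had the opposite sign, at 5.34, 3.8, 5.23 and 6.32 FPKM against 11.2, 6.52, 5.95 and 6.38 FPKM (0.44 ± 0.21, adjusted p = 1.00). Fructose replicate 1 was far above the other fructose libraries for this gene.

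By complex, the median log2 fold change in the hippocampus was -0.09 for complex I, with 25 of 32 genes below 0, and -0.05 for the assembly factors (4 of 6). It was -0.06 for complex II (4 of 4), -0.01 for complex III (5 of 8), -0.09 for complex IV (11 of 14) and -0.09 for complex V (10 of 14). Over all members 59 of 78 were below 0, with a median of -0.07, while 51.4% of all loci tested were below 0, with a median of -0.0038. These counts depended on single libraries. Without fructose replicate 4, 37 of 78 members were below 0 and the median was 0.01, against 53.1% of all loci. In that library 67 of the 78 members lay below their own mean over the 8 libraries, by -0.30 log2 units on average, and fructose replicate 1 had 52 below, with an average of -0.10, while fructose replicates 2 and 3 lay above by 0.11 and 0.15. Without both replicate 1 libraries 51 of 78 were below 0, against 51.9% of all loci, with a median of -0.04. Control replicate 2 lay below by -0.13, so libraries of both groups were found on both sides. Library weights estimated from the data by limma also gave 37 of 78, with a median of 0.0082, against 58.3% of all loci with a median of -0.028. With these weights the medians of complexes I, III, IV and V turned positive, at 0.021, 0.0040, 0.023 and 0.00047. The size of the shift in fructose replicate 4 differed by complex. It was -0.44 for complex I and -0.32 for complex IV, and -0.05 for the assembly factors.

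**Figure D3:**
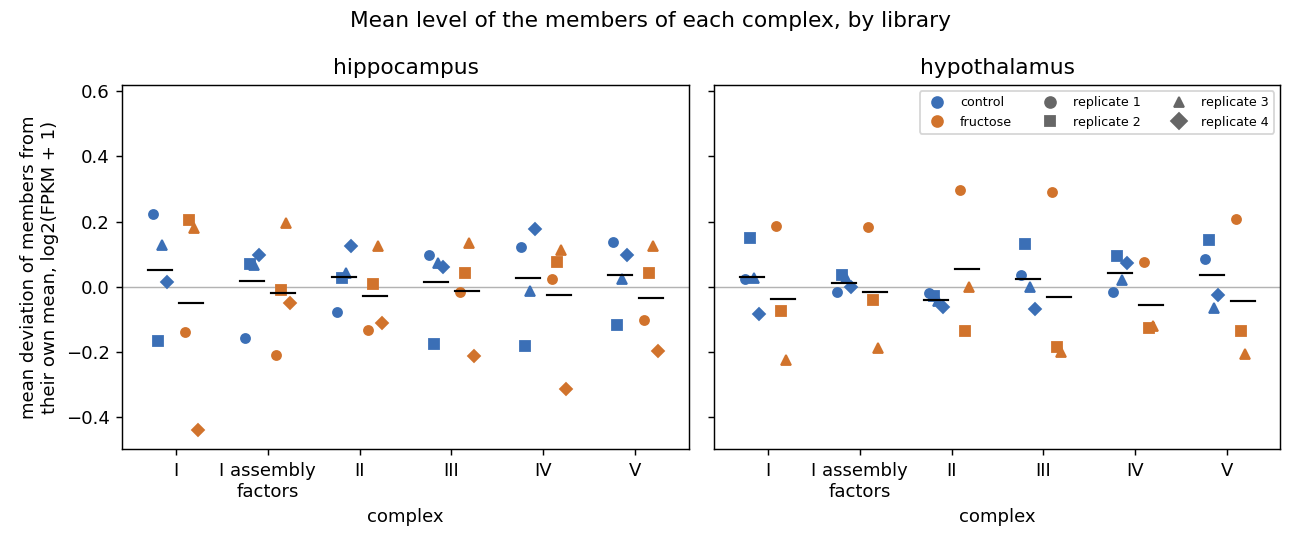
Mean deviation of the members of each complex from their own mean over the libraries of the region, on the log2(FPKM + 1) scale, by library; colours give the treatment, symbols the replicate number and black lines the group means. In the hippocampus fructose replicate 4 is the lowest library for complexes I, III, IV and V, and in the hypothalamus fructose replicate 1 lies above fructose replicates 2 and 3 in every complex.

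Among the other named members of the hippocampus, the complex I subunit Ndufb10 was at 116 ± 16.5 FPKM in controls and 98.7 ± 26.6 after fructose (SD, n = 4 each), and Ndufa4l2 at 2.64 ± 1.30 and 1.77 ± 0.595. The assembly factors with the smallest p were Ndufaf7 (15.1 ± 1.40 and 14.2 ± 2.02), Ndufaf6 (7.33 ± 1.5 and 6.63 ± 1.4) and Ndufaf4 (6.37 ± 1.51 and 6.84 ± 1.54 FPKM). In complex II the iron-sulfur subunit Sdhb was at 135 ± 2.17 and 131 ± 11.1 FPKM, and the membrane anchors Sdhc and Sdhd at 134 ± 18.3 and 126 ± 11.9, and at 106 ± 17.2 and 101 ± 15.2 FPKM. In complex III Uqcrb, a small subunit near the ubiquinone site, was at 19.3 ± 2.60 and 16.3 ± 2.11 FPKM, a log2 fold change of -0.23 ± 0.14. The core protein Uqcrc2 was at 129.7 ± 18.7 and 136 ± 8.52 FPKM, with the opposite sign. In complex V Atp5o, which joins the stator stalk to the catalytic head, was at 403, 526, 449.6 and 406 FPKM in controls and 402, 408, 427 and 261 FPKM after fructose. Fructose replicate 4 lay far below the other 7 libraries, which overlapped. The gamma subunit Atp5c1, the rotating axle, was at 349 ± 41.9 and 307 ± 29.3 FPKM, and Atp5sl at 13.6 ± 1.71 and 11.7 ± 1.61. Atp5f1, the b subunit of the stator, had the largest log2 fold change of the members, 0.55 ± 0.42, from 2.27, 1.02, 1.27 and 1.65 FPKM in controls to 1.15, 1.70, 2.44 and 8.02 FPKM. That value again came from fructose replicate 4, and the other 3 fructose libraries lay at or near the range of the controls.

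**Figure D4:**
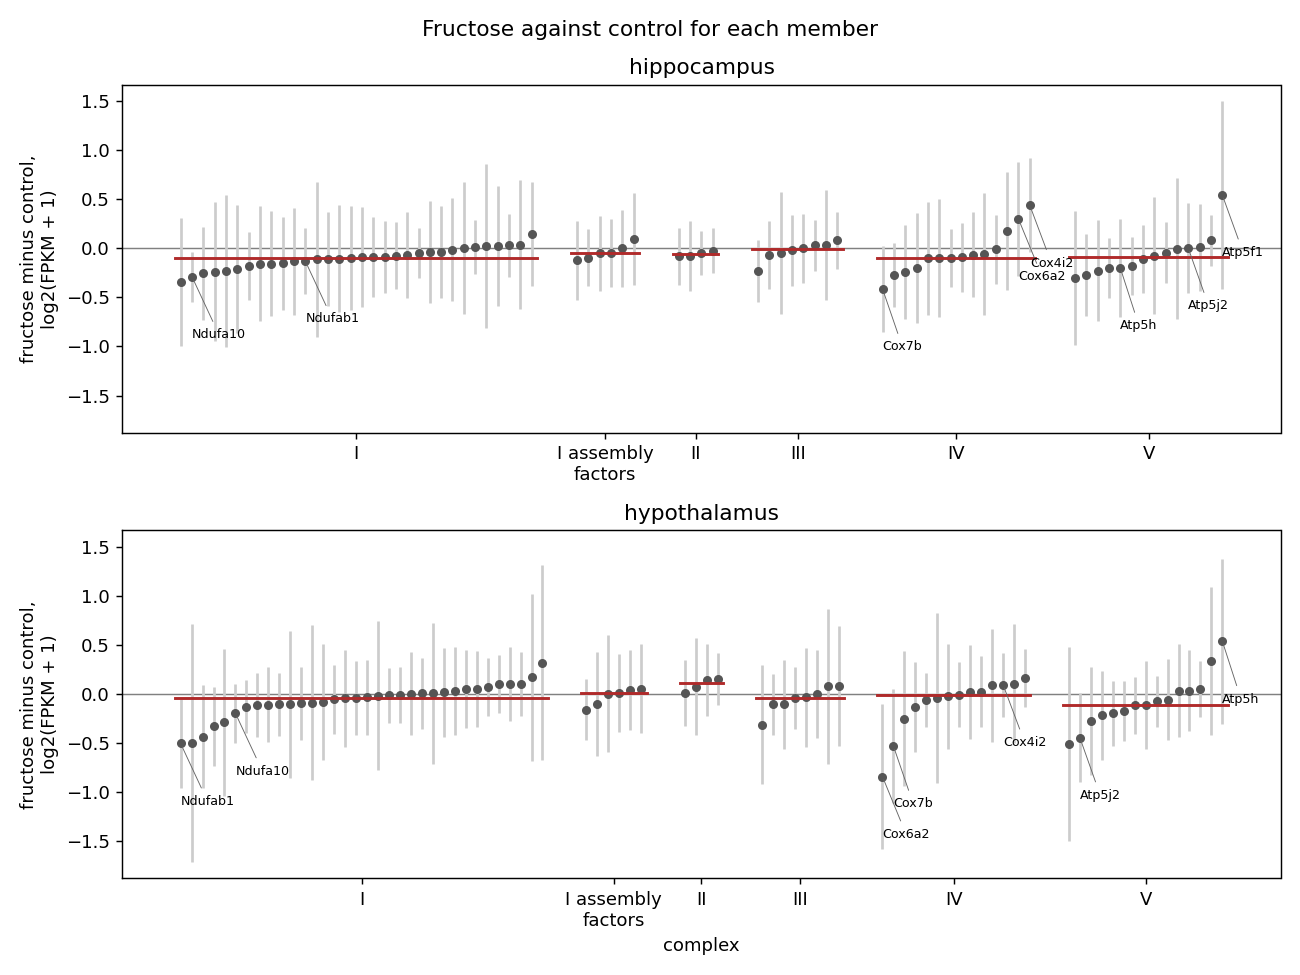
Log2 fold change (fructose minus control) of every member by complex in the hippocampus (top) and hypothalamus (bottom), sorted within each complex; grey bars are 95% intervals from limma and red lines the medians. All intervals cross 0 except those of Ndufa10 in the hippocampus and of Cox6a2 and Ndufab1 in the hypothalamus, and the medians lie between -0.11 and 0.11.

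In bulk tissue, fewer cells of a type and less RNA per cell cannot be told apart. Of 10 neuronal markers 5 had a negative fold change in the hippocampus, and their summed level was 2339 to 3094 FPKM in controls and 2399.8 to 2757 after fructose. The meningeal fibroblast list had a positive fold change in 11 of 11 genes with a median of 1.09, with sums of 64.7 to 585 and 239 to 839.8 FPKM. In limma 1 of the 11 had an unadjusted p below 0.05, against 0.808% of all loci, and 0 passed the adjusted test. Of 7 genes each, the oligodendrocyte list was below 0 in 7 (median -0.07), the astrocyte and microglia lists in 6 (-0.08 and -0.02) and the endothelial list in 1 (0.13), with 0 past the adjusted test. The choroid plexus list summed to 1197 to 7603 FPKM in controls and 1503 to 5863 after fructose. From the mean for this list, control replicates 1 to 4 deviated by 0.73, 0.07, -1.37 and 0.22 log2 units. Fructose replicates 1 to 4 deviated by 1.12, -0.87, -1.05 and 1.15. Whether the makeup of the dissected tissue bears on the member values was not tested.

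In the hypothalamus no member passed the test either. Of 81 members 0 had an adjusted p below 0.05 in limma, against 0.0087% of 11498 loci. The unadjusted p was below 0.05 for 2 members, Cox6a2 and Ndufab1, against 3.14% of loci. For 0 members did all fructose libraries lie below all controls, against 1.58% of loci, and for 0 members did all lie above, against 1.75%. In 72 of the 81 (88.9%) the 95% interval lay within 1 unit of 0, near the 87.8% of all loci. Within 0.5 units of 0 it lay in 41 of the 81, against 4378 of 11498 loci. With the replicate number as a block, in which control replicate 4 has no partner, 6 of 81 members had an unadjusted p below 0.05, against 6.6% of all loci, and 0 an adjusted p below 0.05.

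Cox6a2 was at 23.3, 40.2, 26.9 and 46.6 FPKM in the controls and at 12.7, 16.6 and 27.1 FPKM after fructose. The highest fructose library lay above 2 of the controls, so the levels overlapped although the ratio to Cox6a1 did not. The log2 fold change was -0.84 ± 0.32, the largest of the members in size, with an unadjusted p of 0.0310 and a limma adjusted p of 1.00. Ndufab1, the mitochondrial acyl carrier protein that is also a complex I subunit, was at 459, 462, 298 and 507 FPKM against 315, 279.5 and 300.1 FPKM (-0.51 ± 0.19, limma adjusted p = 1.00). Control replicate 3 lay among the fructose libraries and the other 3 controls above them. Cox7b was at 204, 291, 263 and 279 FPKM against 217, 218 and 118 FPKM (-0.53 ± 0.25, limma adjusted p = 1.00). Control replicate 1 lay below 2 of the fructose libraries. Ndufa10 was at 28.0, 24.5, 25.6 and 24.2 FPKM against 24.3, 23.5 and 19.0 FPKM (-0.20 ± 0.13, limma adjusted p = 1.00), and fructose replicate 1 lay just above the lowest control.

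Atp5j2, the f subunit in the membrane part of complex V, was at 1229, 1445, 929.8 and 1392 FPKM in the controls and at 1085, 790.0 and 863 FPKM after fructose (-0.44 ± 0.20, limma adjusted p = 1.00). Fructose replicate 1 lay above 1 of the controls. Atp5h, the d subunit of the stator stalk, was at 339, 628, 228 and 233 FPKM against 578, 473 and 389 FPKM, a log2 fold change of 0.54 ± 0.36 in the other direction. Its control libraries alone spanned more than the fructose group. Atp5j was at 480.2 ± 39.0 (SD, n = 4) and 421 ± 64.3 FPKM (n = 3). The small membrane subunit of complex I Ndufa1 was at 91.8 ± 15.0 and 68.6 ± 18.4 FPKM, and Ndufa6 at 188 ± 18.7 and 152 ± 32.3. The catalytic Rieske protein of complex III, Uqcrfs1, was at 95.0 ± 9.07 and 90.2 ± 25.7 FPKM, Uqcr11 at 678 ± 185 and 539.6 ± 119.6, and Uqcrh at 467 ± 49.3 and 433 ± 39.9. All 4 genes of complex II had a positive fold change, among them Sdha at 103 ± 10.8 and 115 ± 21.9 FPKM and Sdhc at 157 ± 6.57 and 175 ± 17.2. The 3 assembly factors with the smallest p were Ndufaf6 (9.42 ± 1.08 and 8.32 ± 0.860), Ndufaf5 (22.2 ± 1.42 and 21.6 ± 8.60) and Ndufaf4 (4.65 ± 0.430 and 5.0 ± 1.65 FPKM). Cox4nb, whose RefSeq symbol is Emc8 and which was grouped with complex IV by its name alone, was at 21.0 ± 0.944 and 23.7 ± 3.22 FPKM.

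**Figure D5:**
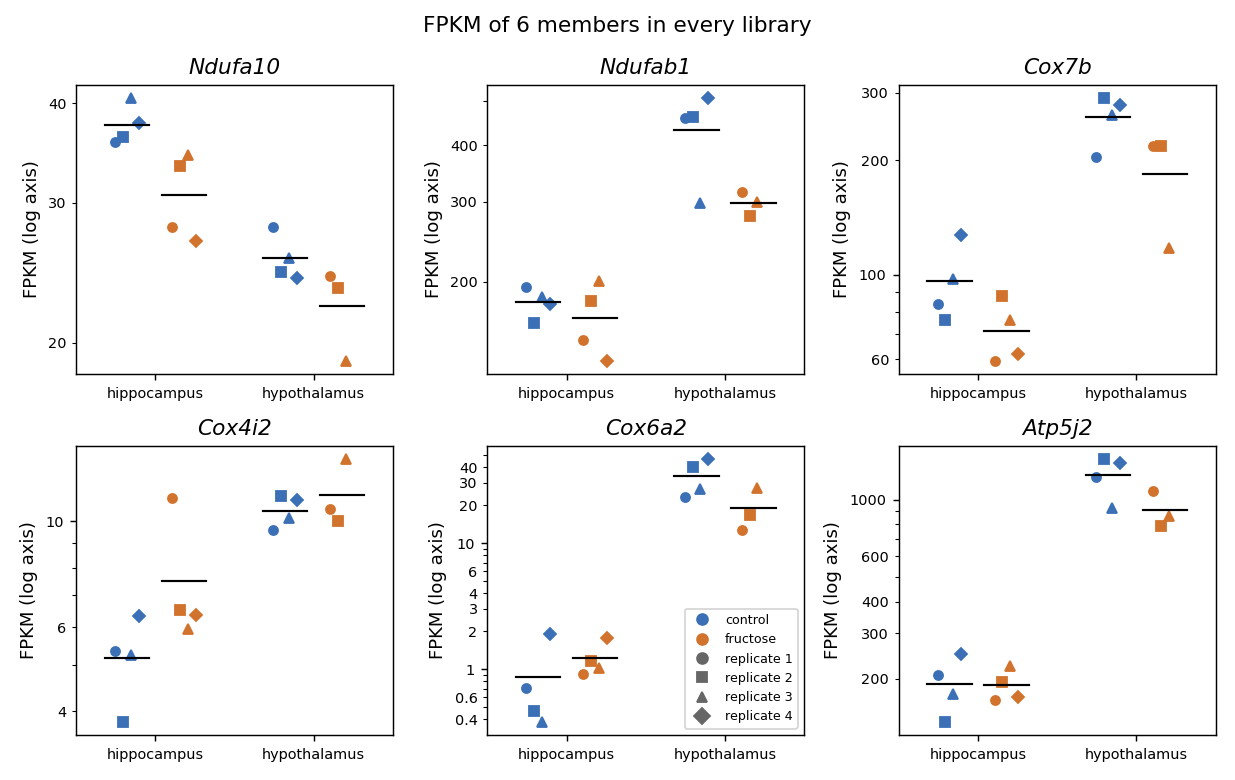
FPKM on a log axis of 6 members in every library of both regions; colours give the treatment, symbols the replicate number and black lines the group means. The groups are apart for Ndufa10 in the hippocampus and overlap for the others shown.

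By complex, the hypothalamic medians were -0.04 for complex I, with 21 of 34 genes below 0, 0.0046 for the assembly factors (2 of 6) and 0.11 for complex II (0 of 4). They were -0.04 for complex III (6 of 8), -0.01 for complex IV (8 of 14) and -0.11 for complex V (10 of 15). Over all members 47 of 81 were below 0, with a median of -0.03, against 48.5% of all loci, with a median of 0.0065. The 3 fructose libraries did not move together. Fructose replicate 1 had 63 of 81 members above their own mean, by 0.19 log2 units on average, whereas replicates 2 and 3 lay below it by -0.11 and -0.19. Without fructose replicate 1, 67 of 81 members were below 0, against 52% of all loci, and the median was -0.15. The complex II and assembly factor medians then turned negative, at -0.02 and -0.17. Without both replicate 1 libraries 67 of 81 were again below 0, against 51.7% of all loci, with a median of -0.15. In that limma fit 7 members had an unadjusted p below 0.05, against 9.37% of all loci, and 0 passed the adjusted test. Without fructose replicate 2 or 3 the counts were 38 and 37, against 46% and 47.1% of all loci, with medians of 0.02 and 0.04. With estimated library weights 69 were below 0, against 50.3% of all loci. The meningeal fibroblast list, chosen with earlier results of these data known, had a negative fold change in 11 of 11 genes, with a median of -1.48. In limma 8 of the 11 had an unadjusted p below 0.05, against 3.14% of all loci, and 0 passed the adjusted test. The list summed to 379.9 to 811 FPKM in controls and 98.5 to 396 after fructose. Of 7 genes each, the astrocyte list was above 0 in 6 (median 0.23), the endothelial list below in 6 (-0.27), the oligodendrocyte list below in 5 (-0.03) and the microglia list below in 3 (0.09), and 7 of 10 neuronal markers were below 0 (-0.02). The part of these lists in the member values was not tested.

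The fold changes of the 2 regions were compared through the interaction of region and treatment over 9931 symbols. Of the 77 shared members 0 had an adjusted p below 0.05 in limma, as did 0% of all symbols, and 1 had an unadjusted p below 0.05, against 2.31%. That member was Cox6a2, with 0.30 in the hippocampus, -0.84 in the hypothalamus and a difference of -1.14 ± 0.41 (unadjusted p = 0.0139, limma adjusted p = 1.00). With library weights the difference was -1.38 and its adjusted p was 0.0255, in a fit that called 3.38% of all symbols, while in the other settings tried it was 0.605 or above. In the hippocampus Cox6a2 was at 0.711, 0.464, 0.382 and 1.89 FPKM in controls and 0.907, 1.15, 1.02 and 1.78 after fructose, close to the lower limit of the data. Its control mean was 39.7 times higher in the hypothalamus, a ratio across separately made tables. Of the 77 members, 38 had a negative fold change in both regions and 11 a positive one in both. A further 21 had a negative one in the hippocampus alone and 7 in the hypothalamus alone. The matching shares over all symbols were not computed, and the sign counts of each region depended on single libraries, as given above. Taken as hypothalamus minus hippocampus, the smallest p-values in each direction belonged, besides Cox6a2, to positive differences in Atp5h (0.74 ± 0.43), Sdhc (0.23 ± 0.18) and Ndufb9 (0.28 ± 0.23), and to negative ones in Atp5j2 (-0.45 ± 0.29) and Ndufab1 (-0.38 ± 0.25), with 0 of them past the test.

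The genes that serve the complexes were looked at in the same way. Over all loci tested, 51.4% had a negative fold change in the hippocampus and 48.5% in the hypothalamus. Of 31 further assembly factors and electron carriers, 21 had a negative fold change in the hippocampus (median -0.07) and 17 in the hypothalamus (median -0.02). Of these, 0 passed the adjusted test. In the hippocampus the lowest library for this list was fructose replicate 1, at -0.11 log2 units from the mean, with fructose replicate 4 at -0.10. Pet100, an assembly factor of complex IV, was at 219 ± 85.5 FPKM in hypothalamic controls and 105 ± 16.5 after fructose (log2 fold change -0.97 ± 0.33, unadjusted p = 0.0184, limma adjusted p = 1.00). It was singled out after its values were seen. In the hippocampus it was at 24.4 ± 1.82 and 23.1 ± 5.95 FPKM. The list of regulators of mitochondrial biogenesis, which holds transcription factors and coactivators as well as factors that copy and transcribe mitochondrial DNA, had 6 of 18 genes below 0 in the hippocampus and 7 of 17 in the hypothalamus, with 0 past the adjusted test. The coactivator Ppargc1a was at 7.81 ± 1.32 and 7.52 ± 1.18 FPKM in the hippocampus and 3.92 ± 0.624 and 4.79 ± 0.349 in the hypothalamus. Nrf1 was at 3.88 ± 0.403 and 4.12 ± 0.395, and at 4.38 ± 0.655 and 5.20 ± 1.42 FPKM. Tfam, which packages the mitochondrial genome and takes part in its transcription, was at 25.7 ± 3.51 and 25.7 ± 1.61, and at 20.1 ± 4.62 and 20.7 ± 8.87 FPKM. Of 12 genes in a list of carriers, channels, uncoupling proteins and others linked to them (Ckb, Aifm1 and Chchd4), 10 were negative in the hippocampus and 11 in the hypothalamus, with medians of -0.06 in both and 0 past the test. In the hippocampus fructose replicate 4 was the lowest library for this list, at -0.17 log2 units from the mean. The data of both regions hold no entry under the 13 symbols searched for subunits encoded by the mitochondrial genome, so these were not analysed here.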

How the data were processed

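Per the labels' protocols, poly-A selected RNA was sequenced on an Illumina HiSeq instrument and demultiplexed with CASAVA 1.8.2. Per the submitters' processing notes, the tools were TopHat, Bowtie, Cufflinks and Cuffdiff with the build rn5; versions and parameters are not given in the sources used here. The authors deposited 1 table of FPKM per region, with no counts, so the read depth is unknown and each region was fitted alone, except that the difference between regions was tested over both. Low values of replicates 2 to 4 fell in steps (7.29% to 16.7% in the commonest bin), which placed their relative depth at 0.933 to 1.47 times that of control replicate 2. In replicate 1 libraries (1.29% to 1.6%) no such steps could be read.

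Levels were taken as log2(FPKM + 1), over loci with a mean of at least 1 FPKM. Fructose was compared with control with limma 3.58.1 in R 4.3.3, with a trend in the prior variance and Benjamini-Hochberg adjustment over all loci, at a threshold of 0.05, and checked on simulated data. Isoform ratios were compared with exact permutation tests. Complexes were assigned by symbol. Genes named were, in each complex, the 3 with the smallest p in each region and the highest and lowest by level, the 3 with the smallest interaction p in each direction, the isoform families, Ndufa10 and Cox7b. The members and the lists were chosen with earlier results of these data known. Same-numbered control and fructose libraries deviated together over all loci (r = 0.892, 0.208, 0.481 and 0.41 in the hippocampus, and 0.848, 0.488 and 0.456 in the hypothalamus), so the replicate number was also fitted as a block. Without replicate 1 the values were -0.226, 0.404 and 0.0882, and 0.269 and 0.0364. Promoters came from RefSeq (GRCr8). Plots used Python 3.11.15 and its library matplotlib 3.10.9. Alternatives were other pseudocounts, filters, scalings, library weights, member definitions, summed loci and each library left out in turn.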

Additional observations from a re-analysis of the deposited data

Results flagged for a closer look

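In 5 of 76 groups of 4 libraries checked, the highest or lowest library lay far from the other 3 by Dixon's criterion, which chance flags in about 1 of 20 groups. In hippocampal controls, replicate 1 had a mean deviation of -0.16 for the complex I assembly factors, with the others between 0.07 and 0.10, and replicate 2 had -0.18 for complex III, with the others between 0.06 and 0.10. In hippocampal fructose libraries, replicate 1 had Cox4i2 at 11.2 FPKM, with the others between 5.95 and 6.52, and replicate 4 had Atp5o at 261 FPKM, with the others between 402 and 427. In hypothalamic controls, replicate 4 had Ndufaf6 at 11.03 FPKM, with the others between 8.76 and 9.04. Their causes were not tested.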

How the results depend on the processing

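In each region the count of members past the adjusted threshold was 0 in every alternative run, the replicate block included. With the block the hippocampal and hypothalamic medians over all members were -0.07 and -0.05, and the block changed no call. Library weights estimated from the data gave 1 member differing between regions, Cox6a2 (-1.38, adjusted p = 0.0255), a hypothalamic complex II median of -0.054, and opposite signs for Ndufb10 (0.015), Ndufaf4 (-0.0015), Sdhd (0.035), Uqcrc2 (-0.028) and Uqcrh (0.10) in the hippocampus, for Ndufaf4 (-0.045) and Sdhd (-0.12) in the hypothalamus, and for the regional difference of Ndufb9 (-0.033). They also turned the hippocampal medians of complexes I, III, IV and V (0.00047 to 0.023) and the hypothalamic assembly factor median (-0.075). Leaving out both hypothalamic replicate 1 libraries turned Ndufaf4 (-0.14), Sdhd (-0.089) and the medians of complex II (-0.022) and the assembly factors (-0.15). With each library left out in turn, signs turned in the hippocampus for Ndufaf4 (range -0.070 to 0.22), Sdhd (-0.15 to 0.030), Uqcrc2 (-0.011 to 0.16) and Uqcrh (-0.15 to 0.024), and for the medians of complexes I (to 0.038), III (to 0.052) and IV (to 0.050) and of the assembly factors (to 0.027). In the hypothalamus they turned for Ndufaf4 (-0.15 to 0.23), Sdhd (-0.17 to 0.23), Sdha (-0.0094 to 0.24), Ndufaf5 (-0.40 to 0.050), Uqcrfs1 (-0.32 to 0.086), the assembly factor median (-0.17 to 0.049) and the medians of complexes I (to 0.061), II (to -0.020), III (to 0.082) and IV (to 0.036). The replicate block turned the hypothalamic assembly factor median (-0.027). The causes were not tested. The tables hold no counts, so limits from depth could not be computed.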
